A study of Mus musculus with 4 samples.

Results

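T and NK lymphocytes made up 302 of 18200 cells (1.66%) kept from 4 single-cell RNA libraries of mouse mammary gland. A cell was counted among them when it had more than 500 genes and under 20% mitochondrial UMIs (unique molecular identifiers, each standing for 1 captured transcript), held at least 1 UMI of *Ptprc*, which encodes the pan-leukocyte phosphatase CD45, and had at least 2 of 8 T and NK genes detected: *Cd3d*, *Cd3e*, *Cd3g*, *Trbc1*, *Trbc2*, *Nkg7*, *Ccl5* and *Xcl1*. Cells with *Epcam* at 10 or more counts per 10000 UMIs, or with 3 or more UMIs of *C1qa*, *C1qb* and *Lyz2* together, were left out so that epithelial cells and macrophages would not enter. The counts of these rule genes in the selected cells are therefore given as descriptions, without a test of the cells against other cells.

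T cells recognise antigen through a receptor of paired alpha-beta or gamma-delta chains that signals through the CD3 subunits, and CD4 or CD8 coreceptors divide the alpha-beta cells into helper and cytotoxic lineages. NK cells have no such rearranged receptor, read activating and inhibitory receptors such as NKp46 (*Ncr1*) and the lectin-like Klr and Ly49 families, and kill through granzymes and perforin. In the mammary gland, lymphocytes lie within and beneath the ductal epithelium, and tissue-resident cells are commonly recognised by *Cd69*, *Itgae* and *Cxcr6*, whereas naive cells that pass between blood and lymph node carry *Ccr7* and *S1pr1*.

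The study asked what happens when LATS1 and LATS2, kinases of the Hippo pathway, are lost from luminal mammary epithelium, to the epithelium and to the cells around it. The 2 WT libraries came from Lats1f/f;Lats2f/f;R26-lsl-EYFP mice, heterozygous for the EYFP reporter and without Cre, and the 2 LATS1/2 KO libraries came from mice that also carried Krt8-CreERT2, with the reporter heterozygous in replicate 1 and homozygous in replicate 2. All mice were adult nulliparous females, and all were injected with 2 mg of Tamoxifen on each of 5 days and collected 7 days after the last dose, so that the floxed alleles, at least 1 copy of the reporter and the drug were shared by both groups, which differed by Cre and, in LATS1/2 KO replicate 2, by reporter dose. Each library was 1 mouse. Cre was driven by the *Krt8* promoter, which is active in luminal epithelium, so lymphocytes were not its intended target. Nodes were cut out of the fourth gland pair only, and live cells were sorted before capture.

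The kept cells numbered 3515 to 5272 per library, with a median of 5962.5 to 10141 UMIs, whereas the lymphocytes had medians of 2091.5 to 3107.5 UMIs and 947 to 1234.5 genes. Summed over a library, the lymphocytes gave 453666 and 226243 UMIs in WT and 34302 and 273430 in LATS1/2 KO. LATS1/2 KO replicate 1 stood apart because it held only 12 of the cells, so that 1 UMI there equalled 29.2 CPM (the UMIs of a gene as a share of all UMIs summed over the lymphocytes of a library, in the usual unit of that name). No lymphocyte barcode occurred in more than 1 library. *Lats2* stood at 57.3 and 53.0 CPM in WT and at 87.5 and 43.9 CPM in LATS1/2 KO lymphocytes, a log2 difference of -0.24 with an adjusted p of 0.878 by edgeR's quasi-likelihood test. *Lats1* had 10 and 5 UMIs in WT and 0 and 9 UMIs in LATS1/2 KO. EYFP had 0, 0, 0 and 1 UMIs in the lymphocytes, against 78.6 and 109 CPM in the other kept cells of the LATS1/2 KO libraries.

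The lymphocytes were a smaller part of the sorted cells in both LATS1/2 KO mice than in either WT mouse. They were 147 of 4914 cells in WT replicate 1 (2.99%, exact 95% binomial interval 2.53 to 3.51) and 66 of 3515 cells in WT replicate 2 (1.88%, 1.46 to 2.38). They were 12 of 4499 cells in LATS1/2 KO replicate 1 (0.267%, 0.138 to 0.465) and 77 of 5272 cells in LATS1/2 KO replicate 2 (1.46%, 1.15 to 1.82). The groups did not overlap, although WT replicate 2 and LATS1/2 KO replicate 2 lay close together and had overlapping intervals. The share averaged 2.43 ± 0.788% (SD, n = 2) in WT and 0.864 ± 0.844% (SD, n = 2) in LATS1/2 KO, a difference of -1.57 percentage points. The two-sided exact permutation p was 0.33, the smallest that 2 libraries against 2 can give. Without LATS1/2 KO replicate 1 the difference was -0.974 points, so that the library of 12 cells carried much of it. These intervals, like all that follow, cover counting error only.

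**Figure D1:**
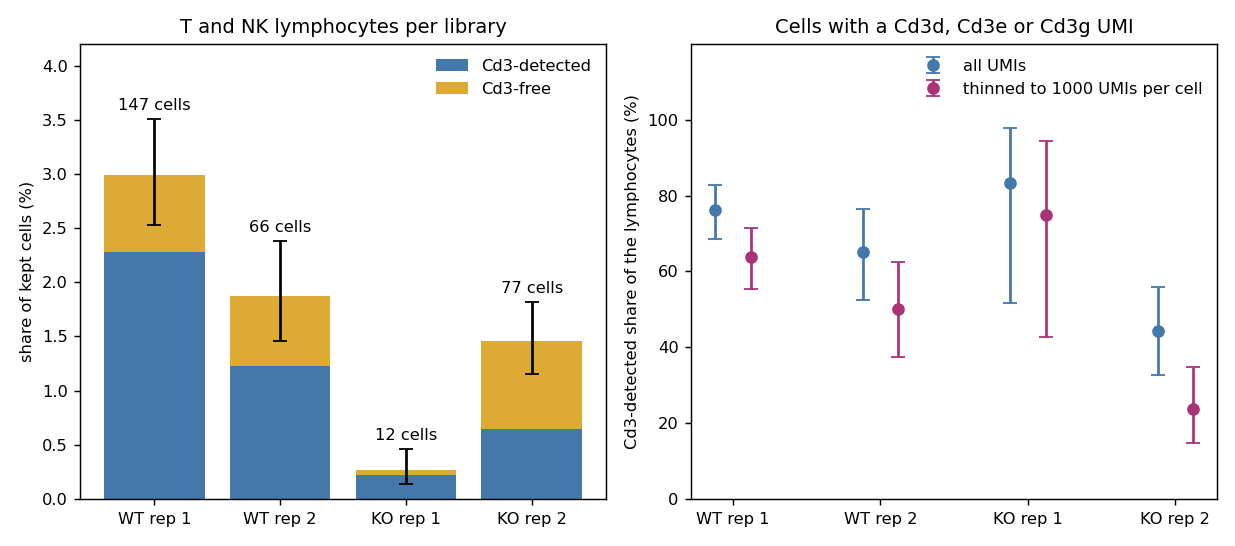
Left, lymphocytes as a percentage of kept cells in each library, with bars split into Cd3-detected and Cd3-free cells; right, the Cd3-detected share of the lymphocytes with all UMIs and thinned to 1000 UMIs per cell. Error bars are exact 95% binomial intervals; WT libraries sit at 2.99 and 1.88% and LATS1/2 KO libraries at 0.267 and 1.46%, and the Cd3-detected share runs from 44.2 to 83.3% with both ends in LATS1/2 KO.

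Shares of sorted cells depend on what else was captured. Endothelial cells (no *Ptprc* UMI and at least 2 of *Pecam1*, *Cdh5*, *Cldn5* and *Egfl7*) numbered 39 and 34 in WT and 238 and 231 in LATS1/2 KO. Macrophages (a *Ptprc* UMI and 3 or more UMIs of *C1qa*, *C1qb* and *Lyz2*) numbered 6 and 5 in WT and 117 and 188 in LATS1/2 KO. Per 100 endothelial cells there were 377 and 194 lymphocytes in WT and 5.04 and 33.3 in LATS1/2 KO. Fewer lymphocytes in the gland and more cells of other types recovered cannot be told apart from these libraries.

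At the edge of the rule, 32 of the 302 cells had exactly 2 of the 8 genes, 66 had 3, and 204 had 4 or more. Just outside it, 23 *Ptprc*-positive cells had 1 of the genes, 18 cells failed by *Epcam* alone, 2 failed by the macrophage genes alone, and 56 met all but the *Ptprc* condition. Among the members, 28 held 1 or 2 UMIs of the macrophage genes, 21 of them in LATS1/2 KO replicate 2, and 75 held an *Epcam* UMI.

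Genes that the rule did not use were also those of lymphocytes. Of 1629 genes at 50 CPM or more in the lymphocytes of every library, those with the highest ratio to the other kept cells, taken as the lowest ratio of the 4 libraries, were *Gzmb* (granzyme B, at least 1006-fold in every library), the rule gene *Xcl1*, *Ms4a4b* (729-fold), the rule gene *Nkg7* and *Ifng* (interferon gamma, 578-fold). *Gzmb* stood at 284 and 765 CPM in WT and at 204 and 249 CPM in LATS1/2 KO. *Ms4a4b*, which encodes a T cell membrane protein, stood at 469.5 and 411 CPM in WT and at 554 and 409.6 CPM in LATS1/2 KO. The levels of *Ms4a4b* overlapped between the groups. Those of *Gzmb* did not, which held for 45.1% of all genes tested between the groups, and *Gzmb* did not pass the test given below. The next genes outside the rule were *Sh2d2a* and *Zap70*, which act behind the T cell receptor, the adhesion receptor *Cd2*, and the NK receptor genes *Klra7*, *Klrc2*, *Klre1*, *Il2rb* and *Klrb1c*, with lowest ratios from 566-fold for *Sh2d2a* to 325-fold for *Klrb1c*. The Klra and Klrc genes are families of near-identical copies, and reads may be split among them.

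Several defining markers of other leukocytes were absent, and other genes of their lists were present. The B cell genes *Ms4a1* and *Pax5*, the dendritic cell genes *Flt3*, *Clec9a*, *Cd209a* and *Siglech*, the macrophage gene *Adgre1*, the neutrophil genes *S100a9*, *Csf3r* and *Retnlg* and the basophil genes *Mcpt8* and *Ms4a2* had 0 UMIs in the lymphocytes of all 4 libraries. Over the lymphocytes together, 4 of 7 B cell genes, 3 of 7 dendritic cell genes, 7 of 8 macrophage genes and 2 of 4 mast cell and basophil genes had a UMI. Of 4 neutrophil genes 1 did, *S100a8*. At least 2 B cell genes were detected in 1 lymphocyte of WT replicate 1 and 1 of LATS1/2 KO replicate 2. *Ighm*, the IgM heavy chain gene of the B cell list, had 24 and 18 UMIs in WT and 3 and 4 in LATS1/2 KO, and was detected in 13.6 and 18.2% and in 25.0 and 5.19% of the lymphocytes. The 7 dendritic cell markers summed to 30.9 and 35.4 CPM in WT and to 0 and 36.6 CPM in LATS1/2 KO, against 2.36 to 5.96 CPM in the other kept cells, with *Itgax*, an integrin that NK cells can also carry, at 14, 6, 0 and 3 UMIs. *Kit*, of the mast cell list, had 11 UMIs in LATS1/2 KO replicate 2. The list of 8 macrophage markers, 3 of which the rule itself limited, summed to 19.8 and 26.5 CPM in WT and to 233 and 135 CPM in LATS1/2 KO lymphocytes, against 303 and 295 CPM and 775 and 775 CPM in the other kept cells of the same libraries. Of those 8 markers, 5 and 5 were at 0 in WT and 4 and 1 in LATS1/2 KO.

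Epithelial and fibroblast transcripts were present in the lymphocytes, and more so in LATS1/2 KO. The list of 9 epithelial markers summed to 679 and 1269 CPM in WT and to 2624 and 4140 CPM in LATS1/2 KO, against 18113 to 20392 CPM in the other kept cells. The list of 6 fibroblast markers summed to 15.4 and 35.4 CPM in WT and to 699.7 and 753 CPM in LATS1/2 KO, against 251 and 389.5 CPM and 2739 and 3982 CPM in the other kept cells. An estimate was scaled by 6 epithelial genes, *Krt8*, *Krt18*, *Wfdc18*, *Csn3*, *Plet1* and *Trf*. By it, transcripts of the other cells would account for 3.73 and 5.74% of the lymphocytes' UMIs in WT and for 14.4 and 23.2% in LATS1/2 KO. In LATS1/2 KO replicate 2, 6 cells with 10 or more *Krt8* and *Krt18* UMIs supplied 25.0% of the lymphocytes' UMIs, and without such cells the estimate there was 5.48%. WT held 1 such cell in each library and LATS1/2 KO replicate 1 held 0.

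The 302 cells fell into 199 with a UMI of *Cd3d*, *Cd3e* or *Cd3g*, called Cd3-detected here, and 103 without, called Cd3-free. Cd3-detected cells were 112 of 147 in WT replicate 1 (76.2%, 68.5 to 82.8) and 43 of 66 in WT replicate 2 (65.2%, 52.4 to 76.5). They were 10 of 12 in LATS1/2 KO replicate 1 (83.3%, 51.6 to 97.9) and 34 of 77 in LATS1/2 KO replicate 2 (44.2%, 32.8 to 55.9). The LATS1/2 KO libraries were the highest and the lowest of the 4, so the groups overlapped. The means were 70.7 ± 7.81% in WT and 63.7 ± 27.7% in LATS1/2 KO (SD, n = 2 each), and the two-sided exact permutation p was 1.0. Thinned to 1000 UMIs per cell, the shares were 63.7 and 50% in WT and 75.0 and 23.7% in LATS1/2 KO, in the same order. The difference between the group means was -6.93 percentage points with all libraries and 12.7 points without LATS1/2 KO replicate 2.

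T cell genes outside the rule followed the Cd3 split in part, as a description of cells chosen by related genes. At least 2 of 8 further T cell markers were detected in 97 of 112 and 26 of 43 Cd3-detected cells in WT, in 8 of 10 and 17 of 34 in LATS1/2 KO, and in 0 endothelial cells. Among Cd3-free cells they were detected in 8 of 35 and 8 of 23 in WT and in 0 of 2 and 4 of 43 in LATS1/2 KO. In WT replicate 1, *Zap70* was detected in 23.2% of Cd3-detected and 28.6% of Cd3-free cells and *Cd2* in 43.8 and 42.9%. In WT replicate 2, *Zap70* was detected in 32.6 and 21.7% and *Cd2* in 44.2 and 26.1%, lower in the Cd3-free cells. *Trac*, the constant region of the alpha chain, had a UMI in 58.0 and 48.8% of Cd3-detected cells in WT and in 60 and 23.5% in LATS1/2 KO. No Cd3-free cell held a *Trac* UMI, nor did any endothelial cell, although the endothelial cells were deeper, with medians of 4273 to 4432.5 UMIs. LATS1/2 KO replicate 2 had the lowest *Trac* share, also after thinning (31.2 and 25.6% in WT against 50 and 9.09% in LATS1/2 KO).

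Among the Cd3-detected cells of WT, more held a CD8 than a CD4 UMI. A *Cd8a* or *Cd8b1* UMI was found in 34 of 112 cells of WT replicate 1 (30.4%, 22.0 to 39.8) and in 11 of 43 cells of WT replicate 2 (25.6%, 13.5 to 41.2). In LATS1/2 KO it was found in 1 of 10 cells of replicate 1 (10.0%, 0.253 to 44.5) and in 2 of 34 cells of replicate 2 (5.88%, 0.720 to 19.7). Both LATS1/2 KO shares lay below both WT shares, but the interval of replicate 1 spanned the WT values. *Cd8a* itself had no UMI in the 34 Cd3-detected cells of LATS1/2 KO replicate 2. By a floor of 3 cells, not the exact interval, this allows a share of up to 8.82% of cells with a UMI. It sets no limit on cells that express the gene. *Cd4* was found in 14 and 3 cells of WT and in 2 and 1 cells of LATS1/2 KO, and no cell held both a CD4 and a CD8 UMI.

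Gamma-delta genes were detected in 17 of 112 (15.2%) and 13 of 43 (30.2%) Cd3-detected cells in WT and in 1 of 10 and 11 of 34 (32.4%) in LATS1/2 KO. Among Cd3-free cells they were detected in 6 of 35 (17.1%) and 6 of 23 (26.1%) in WT and 0 of 2 and 6 of 43 (14.0%) in LATS1/2 KO. *Il17a*, a cytokine of gamma-delta and helper T cells, was found in 5 and 1 Cd3-detected cells of WT and in 1 and 0 of LATS1/2 KO. *Foxp3*, the regulatory T cell factor, was found in 1, 1, 2 and 1 cells. Counts of this size cannot order the libraries.

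Naive genes differed in share between the 2 WT mice. At least 2 of 5 naive genes were detected in 66 of 112 Cd3-detected cells of WT replicate 1 but in 13 of 43 of WT replicate 2, and in 4 of 10 and 11 of 34 of LATS1/2 KO. *Ccr7*, the receptor that guides cells into lymph nodes, had a UMI in 36.6 and 11.6% of Cd3-detected cells in WT and in 30 and 17.6% in LATS1/2 KO. The LATS1/2 KO shares of *Ccr7* lay between the WT shares. Cells from a lymph node and cells from the gland cannot be told apart by these counts.

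The Cd3-free cells carried NK genes, again as a description of cells chosen by related genes. Without a Cd3 UMI, a cell met the rule only with at least 2 of *Trbc1*, *Trbc2*, *Nkg7*, *Ccl5* and *Xcl1*. At least 3 of 12 NK markers were detected in 33 of 35 (94.3%) and 21 of 23 (91.3%) Cd3-free cells of WT and in 1 of 2 and 36 of 43 (83.7%) of LATS1/2 KO. Among Cd3-detected cells the same held for 17 of 112 (15.2%) and 20 of 43 (46.5%) in WT and for 1 of 10 and 11 of 34 (32.4%) in LATS1/2 KO, and among endothelial cells for 0, 0, 0 and 1. The rule gene *Trbc1*, a T cell receptor beta chain constant region that NK cells can also transcribe, was detected in 62.9 and 56.5% of Cd3-free cells of WT and in 67.4% of those of LATS1/2 KO replicate 2, so that T cells whose Cd3 transcripts were missed cannot be told apart from NK cells one by one. Since LATS1/2 KO replicate 1 had 2 Cd3-free cells, no test between groups was run on them, and the values below compare WT with LATS1/2 KO replicate 2 as single libraries.

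Within the Cd3-free cells the NK genes did not all stand in the same order. *Ncr1* was detected in 60 and 56.5% of them in WT and in 9.30% in LATS1/2 KO replicate 2, and after thinning in 32.4, 34.8 and 0%. *Klrd1*, which encodes CD94, was detected in 77.1 and 65.2% in WT and in 76.7% in LATS1/2 KO replicate 2. *Eomes*, a transcription factor of mature NK cells, was detected in 28.6 and 52.2% in WT and in 37.2%. *Ncr1* was therefore the lower in LATS1/2 KO replicate 2, whereas *Klrd1* and *Eomes* lay between the WT values. *Klra4*, a Ly49 receptor gene, was detected in 28.6 and 13.0% in WT and in 41.9% in LATS1/2 KO replicate 2. *Ncr1* had a UMI in at most 0.433% of the endothelial cells of a library.

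Granule and chemokine genes of the Cd3-free cells stood apart in their order. *Gzma* (granzyme A) was detected in 65.7 and 60.9% in WT and in 58.1% in LATS1/2 KO replicate 2, at summed levels of 8299.5, 5036 and 2209 CPM. *Prf1* (perforin) was detected in 17.1 and 30.4% in WT and in 20.9%. *Ccl4*, a chemokine that draws monocytes and T cells, was detected in 68.6 and 60.9% in WT and in 11.6%, or 58.8, 47.8 and 4.65% after thinning. *Ccl5*, a rule gene and a chemokine too, was detected in 94.3 and 95.7% in WT and in 100% in LATS1/2 KO replicate 2. *Ccl4* was thus detected in a far smaller share of these cells in LATS1/2 KO replicate 2. Since *Ccl5* helped to choose the cells, nothing is read from its share. The homing integrin *Itgb7* was detected in 45.7 and 43.5% in WT and in 6.98% in LATS1/2 KO replicate 2.

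**Figure D2:**
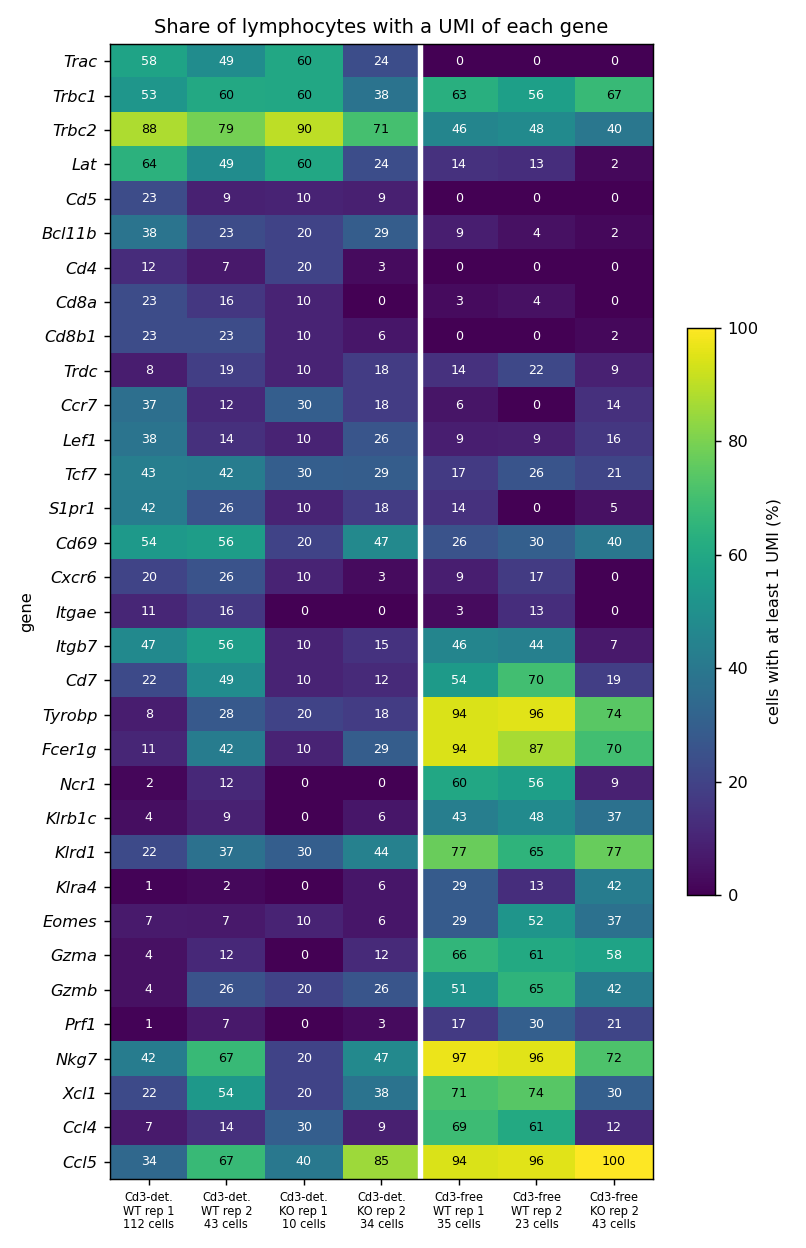
Percentage of Cd3-detected and Cd3-free cells with at least 1 UMI of each gene (rows) in each library (columns), as colour and rounded number; Cd3-free cells of LATS1/2 KO replicate 1 are left out because there were 2. *Trac* runs from 23.5 to 60% in the Cd3-detected columns and is 0 in Cd3-free cells, and *Ncr1* and *Ccl4* are dark in the Cd3-free column of LATS1/2 KO replicate 2 (9.30 and 11.6%).

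Summed over all lymphocytes of a library, 54 of 3362 genes tested (1.61%) differed between LATS1/2 KO and WT at an adjusted p under 0.05 (edgeR's quasi-likelihood test with Benjamini-Hochberg adjustment): 43 genes (1.28%) rose and 11 (0.327%) fell. The 11 genes that fell included *Cd7*, *Itgb7*, *Itgal* and *Cxcr6* and 2 rule genes, and the 43 that rose included collagen, keratin and HSP70 genes. The median log2 difference over all genes tested was -0.02, and the libraries of the groups did not overlap for 45.1% of the genes. In summed counts, fewer cells expressing a gene and less RNA of it per cell cannot be told apart.

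*Cd7*, an immunoglobulin-like receptor of T and NK cells, stood at 317 and 654 CPM in WT and at 58.3 and 62.2 CPM in LATS1/2 KO. It fell by 3.0 ± 0.46 on the log2 scale (SE, n = 2 libraries per group), with an adjusted p of 0.0117 by edgeR. Both WT libraries lay several times above both LATS1/2 KO libraries, and the other kept cells of LATS1/2 KO held at most 0.258 CPM. By cell, *Cd7* was detected in 29.9 and 56.1% of the lymphocytes in WT and in 16.7 and 15.6% in LATS1/2 KO.

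The homing and adhesion genes *Itgb7*, *Itgal* and *Cxcr6* also fell. *Itgb7*, the beta chain of the gut-homing and E-cadherin-binding integrins, stood at 231 and 225 CPM in WT and at 58.3 and 32.9 CPM in LATS1/2 KO, and fell by 2.70 ± 0.42 (adjusted p 0.0118 by edgeR). *Cxcr6*, the receptor for CXCL16 carried by resident T and innate cells, stood at 117 and 177 CPM in WT and at 29.2 and 7.31 CPM in LATS1/2 KO, where each library held it in a single cell. *Cxcr6* fell by 3.84 ± 0.63 (adjusted p 0.0145 by edgeR). *Itgal*, the alpha chain of LFA-1, stood at 163 and 177 CPM in WT and at 29.2 and 47.5 CPM in LATS1/2 KO, and fell by 1.97 ± 0.41 (adjusted p 0.0450 by edgeR). The groups did not overlap for any of the 3 genes, as for every called gene and for 45.1% of all genes tested. *Itgae*, the alpha chain that pairs with the product of *Itgb7*, had 41.9 and 61.9 CPM in WT and 0 UMIs in LATS1/2 KO, and did not pass the test (adjusted p 0.0519 by edgeR).

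Other genes that fell act in signalling and survival. *Dusp2*, a phosphatase of activated lymphocytes, stood at 917 and 1207 CPM in WT and at 321 and 395 CPM in LATS1/2 KO, and fell by 1.59 ± 0.30 (adjusted p 0.0291 by edgeR). *Bcl2a1b*, a BCL2-family survival gene, stood at 353 and 323 CPM in WT and at 87.5 and 109.7 CPM in LATS1/2 KO, and fell by 1.76 ± 0.35 (adjusted p 0.0358 by edgeR). *Ldlrad4*, a regulator of TGF-beta signalling, stood at 52.9 and 84.0 CPM in WT and at 0 and 3.66 CPM in LATS1/2 KO (adjusted p 0.0376 by edgeR). *Bcl2a1b* belongs to a family of near-identical copies, so its counts are uncertain.

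The rule genes *Nkg7*, a granule protein gene, and *Xcl1*, a chemokine gene of NK and CD8 cells, were in the same list of 11. *Nkg7* stood at 939 and 1406 CPM in WT and at 496 and 307 CPM in LATS1/2 KO. *Xcl1* stood at 624 and 1679.6 CPM in WT and at 321 and 227 CPM in LATS1/2 KO. Since both genes helped to choose the cells, their levels only describe the selected cells and nothing is read from their calls.

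Among the genes that fell, 2 stood lower in the lymphocytes than in the other kept cells. The source of their transcripts in the lymphocytes was not tested. *Ptn*, which encodes the growth factor pleiotrophin, had 86 and 23 UMIs in WT and 0 and 0 in LATS1/2 KO, and was at least 16.4-fold lower (adjusted p 0.0145 by edgeR), against a floor of 3 UMIs over the group. *Gpx3*, a secreted peroxidase gene, stood at 176 and 146 CPM in WT and at 58.3 and 11 CPM in LATS1/2 KO, and fell by 3.30 ± 0.60 (adjusted p 0.0236 by edgeR). In the other kept cells *Ptn* stood at 3573 and 3708 CPM in WT and at 351 and 52.4 CPM in LATS1/2 KO, and *Gpx3* at 2288 and 2539 CPM and at 230.5 and 99.2 CPM. These 2 genes were the exceptions among the 11, since the other 9 stood above the other kept cells in both WT libraries.

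**Figure D3:**
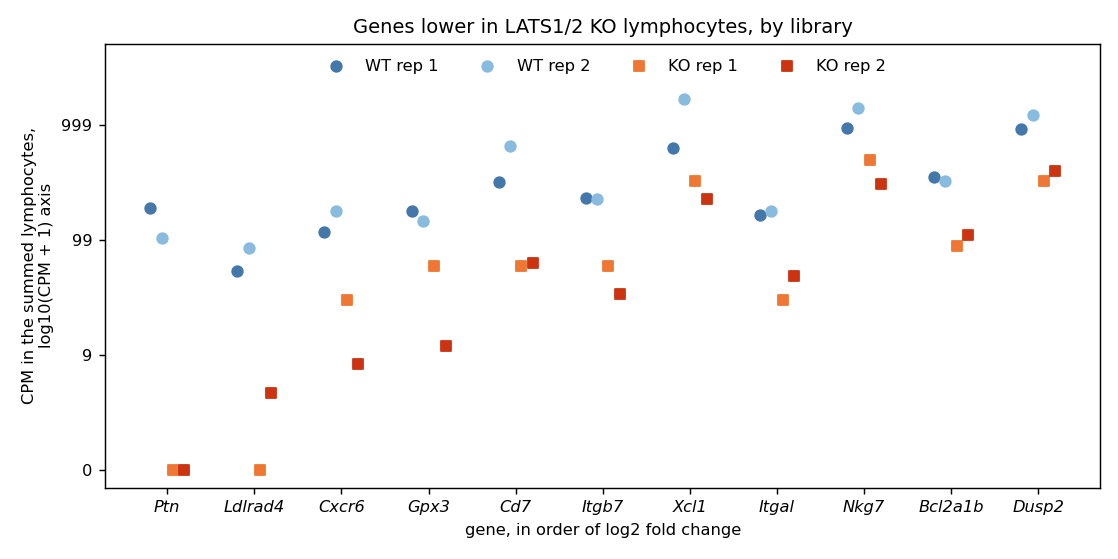
Level of each of the 11 genes that fell in the summed lymphocytes, as 1 point per library, in CPM on a log10(CPM + 1) axis. Both WT points lie above both LATS1/2 KO points for each gene, as for *Cd7* at 317 and 654 CPM against 58.3 and 62.2 CPM, and *Ptn* lies at 0 in both LATS1/2 KO libraries.

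Of the 43 genes that rose, 11 were in a list, among them 3 epithelial, 3 fibroblast and 2 heat shock genes. The epithelial list did not rise as a whole. Of its 8 genes tested, the rule gene *Epcam* included, 5 had a positive and 3 a negative log2 difference. *Igfbp2*, an insulin-like growth factor binding protein gene, had 0 and 0 UMIs in WT and 12 and 88 in LATS1/2 KO, at least 73.6-fold higher (adjusted p 0.00128 by edgeR), against 1432 and 1492 CPM in the other kept cells of LATS1/2 KO. *Col1a1*, a chain of type I collagen, stood at 2.20 and 4.42 CPM in WT and at 175 and 219 CPM in LATS1/2 KO, and rose by 5.83 ± 0.58 (adjusted p 0.00216 by edgeR). *Krt18*, a luminal keratin gene, stood at 271 and 248 CPM in WT and at 962 and 2096 CPM in LATS1/2 KO, and rose by 2.53 ± 0.39 (adjusted p 0.0117 by edgeR). In each case both LATS1/2 KO libraries stood above both WT libraries and below the other cells of their own library. *Col1a1* was detected in 33.3 and 48.1% of lymphocytes and in 43.7 and 44.2% of endothelial cells of LATS1/2 KO.

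The pattern of these examples held for most of the 43: in LATS1/2 KO, 41 of them were not above the level of the other kept cells in both libraries, the exceptions being *AA467197* and *1500011B03Rik*, which were singled out after their values were seen. Of the 43, 35 also had a positive log2 difference between LATS1/2 KO and WT in endothelial cells, against 55.1% of the 3070 genes tested in both classes. *Mt1* and *Mt2*, metallothionein genes, rose by 3.36 ± 0.39 and 4.60 ± 0.60 (adjusted p 0.00290 and 0.00509 by edgeR). *Hspa1a* and *Hspa1b*, inducible HSP70 genes of near-identical sequence, rose by 3.55 ± 0.53 and 3.09 ± 0.45 (adjusted p 0.0104 and 0.00981 by edgeR), while the other 18 members of the dissociation and heat shock list did not pass the test. With the estimated transcripts of the other cells subtracted, 0 genes passed by edgeR in either direction, and 300 had an unadjusted p under 0.05. The estimate was scaled by genes that include the called *Krt8*, *Krt18* and *Wfdc18*, so the loss of these was built in. In LATS1/2 KO replicate 2 it took off 23.2% of the UMIs, against 5.48% without the high-keratin cells. Of the 54 called genes 25 could be tested after the subtraction, and all 25 had the same sign.

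**Figure D4:**
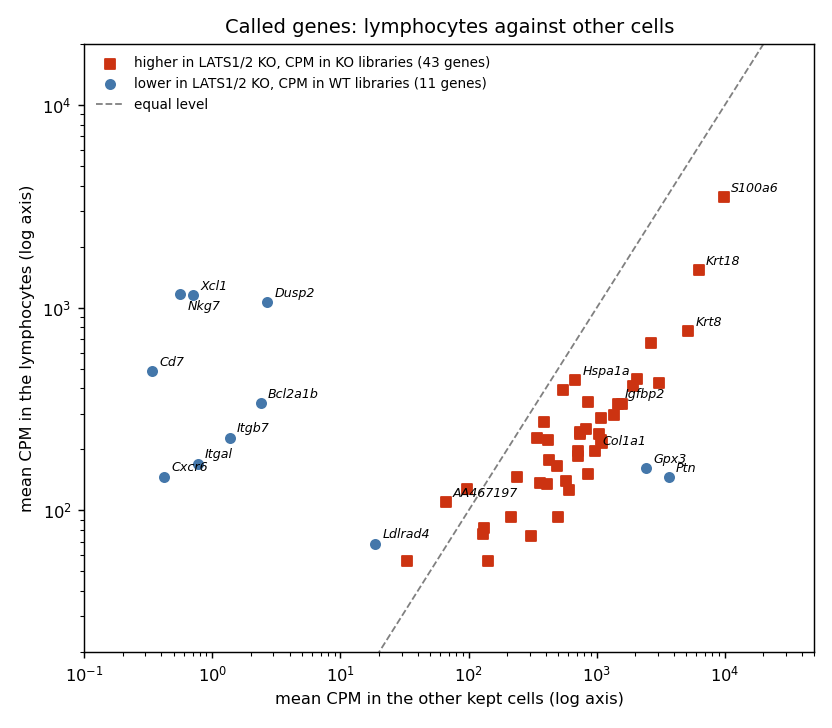
Mean level of each of the 54 called genes in the lymphocytes (y axis, CPM, log scale) against the other kept cells of the same libraries (x axis, CPM, log scale), taken in LATS1/2 KO for the genes that rose and in WT for those that fell, with the line of equal level. Of the 43 genes that rose, 3 lie above the line, and of the 11 that fell, 9 do.

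YAP and TAZ target genes, which rise when LATS kinases are lost, were counted in the same way. *Ctgf* had 0, 0, 0 and 104 UMIs in the lymphocytes, the last in 20 cells (26%) of LATS1/2 KO replicate 2, where 36.8% of endothelial cells held a *Ctgf* UMI. *Ankrd1* had 0, 0, 0 and 15 UMIs. *Cyr61* stood at 13.2 and 26.5 CPM in WT and at 58.3 and 311 CPM in LATS1/2 KO, and rose by 3.65 ± 0.60 (adjusted p 0.0145 by edgeR). All 3 genes were highest in the library with 6 of the 8 high-keratin cells, and in the other kept cells *Cyr61* stood at 676 and 756 CPM in LATS1/2 KO.

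The list counts that follow cover only the genes of a list that passed the low-count filter. They stand beside 1.28% of all genes tested that rose and 0.327% that fell. Of 16 genes of the T cell receptor complex and its signalling, 5 are rule genes. None of the other 11 passed the test, and all 11 had negative log2 differences, with a median of -0.90 against -0.02 over all genes tested (-0.88 with the rule genes). *Lck*, a kinase of T cell receptor signalling, had 234 and 199 CPM in WT and 146 and 109.7 CPM in LATS1/2 KO (log2 difference -0.98, adjusted p 0.243 by edgeR). *Trac* had 284 and 177 CPM in WT and 408 and 51.2 CPM in LATS1/2 KO, so that its groups overlapped. Without LATS1/2 KO replicate 1, 5 of the 11 were called lower (median -1.03), and without LATS1/2 KO replicate 2, 0 were called and 4 were positive (median -0.37). Each of these fits has 1 LATS1/2 KO library, which is assumed to vary as the WT libraries do.

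Of 18 NK genes tested, 1 (*Cd7*) fell and 0 rose, with a median log2 difference of -0.31. *Ncr1*, with 81.6 and 141 CPM in WT and 0 and 21.9 CPM in LATS1/2 KO, had a log2 difference of -2.51 (adjusted p 0.0815 by edgeR). *Fcer1g*, an activating adaptor gene, had 520.2 and 875 CPM in WT and 175 and 274 CPM in LATS1/2 KO (adjusted p 0.0681 by edgeR). *Klrc2* had 115 and 111 CPM in WT and 117 and 149.9 CPM in LATS1/2 KO, so the NK genes did not share a direction. The median of the NK list ranged from -2.16 without LATS1/2 KO replicate 2 to 0.27 with cells free of *Epcam* and macrophage UMIs.

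Of 12 cytotoxic granule and death ligand genes other than *Nkg7*, 0 were called in either direction, with a median of -0.90. *Gzma* had 2074 and 2029 CPM in WT and 0 and 1199.6 CPM in LATS1/2 KO, and did not pass the test (adjusted p 0.365 by edgeR). Of 3 chemokine genes outside the rule, 0 were called, with a median of -1.43, and *Ccl3*, with 106 and 141 CPM in WT and 29.2 and 25.6 CPM in LATS1/2 KO, missed the threshold (adjusted p 0.0525 by edgeR). Of 14 chemokine and trafficking receptors tested (23 in the list), 3 fell (*Cxcr6*, *Itgal*, *Itgb7*) and 0 rose, with a median of -0.64. *Cxcr6* is also in the list of 9 type 1 innate and resident NK genes. Of the 5 tested there it was the 1 that fell and 0 rose, with a median of -1.65. Of 12 tissue residence genes tested (18 in the list), *Cxcr6* again was the 1 that fell, with a median of -0.79. *Rgs1* had 1865 and 2219 CPM in WT and 816 and 1061 CPM in LATS1/2 KO (adjusted p 0.0731 by edgeR).

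The other lists of lymphocyte genes held no gene that fell. Of the naive genes 8 of 10 were tested (median -0.63), and of the cytokines 5 of 18 (-0.60). They had 0 called in either direction, as did 17 lymphocyte transcription factors (-0.58), 8 MHC class I genes (-0.26) and 9 cell cycle genes (-0.17). The 2 of 13 gamma-delta genes tested (-1.09) and the 8 of 12 TGF-beta and integrin genes tested (-0.68) had 0 called too. The 3 coreceptor genes (-2.12) and the 5 of 13 type 2 innate genes tested (-0.73) had 0 called as well. So did the 5 of 8 regulatory T cell genes (0.28) and the 4 of 10 checkpoint genes (0.33) tested. *Ctla4*, an inhibitory receptor, had 50.7 and 30.9 CPM in WT and 729 and 80.5 CPM in LATS1/2 KO, without passing the test (adjusted p 0.243 by edgeR). Of 13 interferon response genes tested (23 in the list), 2 rose (*Bst2* and *Ly6a*) and the median was 0.49. *Bst2* stood at 66.1 and 75.1 CPM in WT and at 233 and 223 CPM in LATS1/2 KO (log2 difference 1.60 ± 0.34, adjusted p 0.0474 by edgeR), against 335 and 343 CPM in the other kept cells of LATS1/2 KO.

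**Figure D5:**
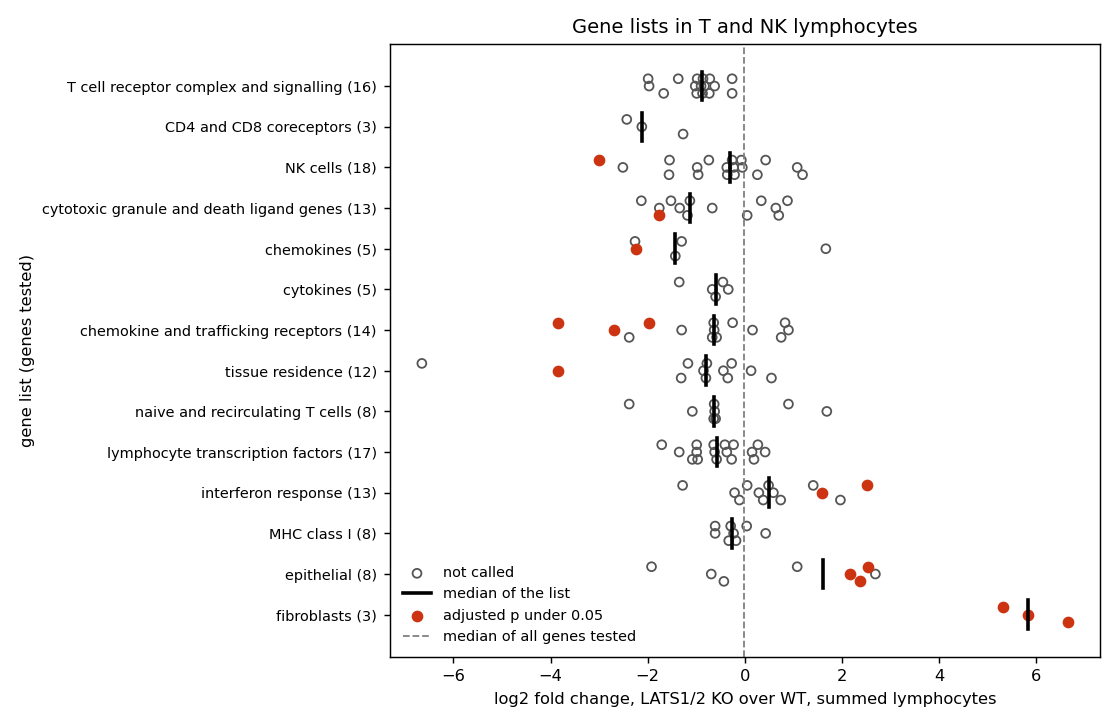
Log2 difference (LATS1/2 KO minus WT, summed lymphocytes) of each gene tested, grouped by list, rule genes included, with the list medians and the median of all genes tested. T cell receptor genes, 5 of them rule genes, all lie below 0 with a median of -0.88. The 3 of 6 fibroblast genes tested lie highest with a median of 5.83. That list summed to 15.4 and 35.4 CPM in WT, so the low-count filter kept the 3 by their level in LATS1/2 KO. *Itgae*, with no UMI in LATS1/2 KO, is drawn at its fitted value although only a bound of at least 4.98-fold lower is given by the counts.

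The sums were also restricted to Cd3-detected cells, among which the share with 3 or more NK markers still differed between libraries as given above. Of 1988 genes tested, 40 (2.01%) differed, 33 higher (1.66%) and 7 lower (0.352%), and the libraries did not overlap for 44.7%. Of the calls, 31 were shared with all lymphocytes, which was 57.4% of the calls there and 77.5% of the calls here, although both fits use the same mice and many of the same cells. *Cd7*, *Cxcr6*, *Itgb7*, *Bcl2a1b* and *Ptn* fell in both.

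In Cd3-detected cells *Cd7* stood at 186 and 553 CPM in WT and at 32.3 and 38.5 CPM in LATS1/2 KO, and fell by 3.27 ± 0.66 (adjusted p 0.0176 by edgeR). *Itgb7* stood at 223 and 224 CPM in WT and at 64.6 and 46.2 CPM in LATS1/2 KO (log2 difference -2.19, adjusted p 0.0360 by edgeR). Neither gene overlapped between the groups, which held for 44.7% of all genes tested here. In LATS1/2 KO replicate 1 each was detected in 1 of 10 Cd3-detected cells. With at least 2 Cd3 UMIs required per cell, 0 genes were called lower. *Gzma* stood at 319 and 553 CPM in WT and at 0 and 84.7 CPM in LATS1/2 KO, and fell by 2.78 ± 0.58 (adjusted p 0.0209 by edgeR). The 7 genes that fell include the rule gene *Cd3g*, from which nothing is read, at 929.6 and 922 CPM in WT and at 452 and 231 CPM in LATS1/2 KO. Of 10 T cell receptor genes outside the rule, 0 were called, with a median of -0.57.

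The calls rest on few libraries and few cells. With all lymphocytes, edgeR called 0 genes without WT replicate 1 (145 at an unadjusted p under 0.05) and 0 without WT replicate 2 (268), against 280 without LATS1/2 KO replicate 1, while DESeq2 called 33 with all libraries. In cells without *Epcam* or macrophage UMIs, of which LATS1/2 KO replicate 1 held 5, 16 genes rose and 0 fell. *Cd7* had a log2 difference between -3.45 and -2.35 under each of 14 alternatives, and passed the threshold under 9. Without the 8 high-keratin cells 28 passed, among them 5 that fell, and *Cd7*, *Itgb7*, *Cxcr6*, *Ptn* and *Ldlrad4* were those 5.

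The lymphocyte differences were also set against those of endothelial cells from the same mice, another class outside the luminal epithelium. The difference between LATS1/2 KO and WT was itself different in the 2 classes for 119 of 4906 genes (2.43%; edgeR, class by condition term), 67 more positive (1.37%) and 52 more negative (1.06%) in lymphocytes. Without LATS1/2 KO replicate 2 there were 140, of which 17 were more positive and 123 more negative, and 99 of the 119 had the same sign. Of the 43 genes that rose in lymphocytes 11 differed in this way, and of the 11 that fell 2 did, *Dusp2* and *Gpx3*. *Dusp2* had a log2 difference of -1.59 in lymphocytes (689 UMIs in WT and 119 in LATS1/2 KO) and of 0.51 in endothelial cells (56 and 453). The UMI counts are not scaled for the unlike numbers of cells in the groups. The difference between the classes was -2.30 ± 0.44 on the log2 scale (adjusted p 0.00210 by edgeR).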

How the data were processed

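Droplet-based 3' single-cell RNA counts of 4 mammary gland libraries were used as deposited. The authors made UMI counts per gene and barcode with Cell Ranger; the matrix headers name version 6.1.2 and the submitters' processing notes name 3.1.0 and the build mm10. The files hold 28693 genes, 20324 barcodes and 0 columns of other samples. Cells with over 500 genes and under 20% mitochondrial UMIs were kept; no doublets were removed beyond the selection rule, as the study's methods name no such step. The selection rule, the members and the gene lists were chosen with earlier results of these data known.

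Raw UMIs were summed per library and cell class and tested with edgeR 4.0.16 in R 4.3.3 (TMM size factors, the default low-count filter filterByExpr, glmQLFTest, p-values adjusted by Benjamini-Hochberg over all genes tested, threshold 0.05), with condition as the only term. The effect in lymphocytes was compared with that in endothelial cells by a class by condition term with the mouse as block. The main tests needed 10 or more cells of a class per library; the alternative without *Epcam* or macrophage UMIs was run with 5 cells in LATS1/2 KO replicate 1. A standard error was taken as the size of the log2 difference over the square root of F, CPM in the text were not scaled by TMM, and a gene at 0 in a group was given a bound from 3 UMIs. Shares carry exact Clopper-Pearson 95% intervals and two-sided exact permutation tests. Thinned shares rest on 1000 UMIs per cell, leaving out 1, 0, 0 and 1 lymphocytes. The named genes are those of the rule and the lists, the 8 largest and 8 smallest differences per comparison among called genes whose libraries did not overlap, the targeted and reporter genes, and the 15 genes with the highest ratio to other kept cells. Some genes of the lists are not reported here. Alternatives used DESeq2 1.42.0, other size factors, filters, cell limits, left-out libraries and subtracted free RNA. Data were also simulated with these library sizes, 1 common dispersion for all genes and the same cell mix in every library. In them, edgeR recovered 16.4% of 2-fold, 79.0% of 4-fold and 94.3% of 8-fold changes in all lymphocytes. In Cd3-detected cells it recovered 0.0, 78.0 and 91.0%. The real libraries differ in cell mix, so recovery there may be other than this.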

Additional observations from a re-analysis of the deposited data

Results flagged for a closer look

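The difference between LATS1/2 KO and WT was itself different in lymphocytes and in endothelial cells for 119 of 4906 genes (2.43%; edgeR, class by condition term), of which 67 (1.37%) were more positive in lymphocytes and 52 (1.06%) more negative. Of the 54 genes called in the lymphocytes, 13 were among them, 11 that rose and 2 that fell.

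The differences below are lymphocytes minus endothelial cells on the log2 scale, for genes with more than 3 UMIs in each class and group. The UMI counts given with them are not scaled for the unlike numbers of cells in the groups. *Dusp2*, which fell in lymphocytes, differed by -2.30 ± 0.44 (adjusted p 0.00210 by edgeR), with 689 UMIs in WT and 119 in LATS1/2 KO lymphocytes. *Gpx3* differed by -2.77, and *Ctla2a*, a protease inhibitor gene that was not called in lymphocytes, by -2.74. *Ctla2a* had a log2 difference of 2.73 in endothelial cells (217 UMIs in WT and 8125 in LATS1/2 KO).

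More positive in lymphocytes were *Cald1* and *Ctsh*, each by 4.12, *Hspb1* by 4.10, *Cyr61* by 3.61, *Crip2* by 3.26 and *Fabp4* by 3.22. *Fabp4*, abundant in endothelial cells, had 4 UMIs in WT and 28 in LATS1/2 KO lymphocytes against 3073 and 30097 in endothelial cells. Its log2 differences were 3.89 in lymphocytes and 0.79 in endothelial cells. *Anxa1* differed by 2.80, *Ly6a* by 2.51, *Igfbp7* by 2.34, *Hspa1a* by 2.06 and *Bhlhe40* by 1.85. *Bhlhe40*, a factor of activated and resident lymphocytes, was not called in lymphocytes (log2 difference 0.55) and had a log2 difference of -1.45 in endothelial cells.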

How the results depend on the processing

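None of the 27 called genes followed in all lymphocytes, or of the 20 in Cd3-detected cells, changed sign under an alternative that could test it. The difference in the share of lymphocytes stayed negative too. For the called genes and for that share the libraries of the groups did not overlap. Leaving out a library could therefore hardly reverse a sign, and the unchanged signs are no separate support. The difference in the Cd3-detected share did change sign. Without LATS1/2 KO replicate 2 it was 12.7 percentage points, and leaving out single libraries it ranged from -26.5 to 12.7 points. For all lymphocytes, where 54 genes were called by edgeR, 33 were called by DESeq2, 194 without a low-count filter (60.3% of them higher, against 79.6%), 16 in cells without *Epcam* or macrophage UMIs (0 lower), 29 without the deepest 10% of cells and 28 without the high-keratin cells, an alternative chosen after seeing the data. EdgeR called 0 of 480 genes with sums thinned to the smallest library (56 at an unadjusted p under 0.05), and 0 with free RNA subtracted (300). Leaving out each library gave 0 to 280 calls, 52.1% of them higher without LATS1/2 KO replicate 1 and 40.6% without LATS1/2 KO replicate 2 (64 calls). For Cd3-detected cells the 40 calls became 23 by DESeq2, 87 without the filter, 0 thinned, 3 with free RNA subtracted and 7 with at least 2 Cd3 UMIs (0 lower in both), and 21 without high-keratin cells, and 43 to 148 with a library left out, 82 of them without WT replicate 2. For the difference from endothelial cells the 119 calls became 205 with RLE size factors, 53 with free RNA subtracted, 56 without the mouse block and 68 without high-keratin cells, and 8 to 200 with a library left out, with 12.1% more positive without LATS1/2 KO replicate 2 against 56.3%.

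Replicate numbers are shared by the groups, but the labels tie no WT mouse to a LATS1/2 KO mouse, and the deviations of same-numbered libraries correlated at r = 0.109 over 3362 genes. With the replicate number as a block, 0 genes were called in all lymphocytes (380 at an unadjusted p under 0.05) and 78 in Cd3-detected cells. The planned tests of Cd3-free cells and of Cd3-free against Cd3-detected cells, with their alternatives, were not run because LATS1/2 KO replicate 1 held 2 Cd3-free cells. With 34302 UMIs in that library, 1 UMI is 29.2 CPM, and a gene below that level is not detectable there with any certainty. In data simulated with the same cell mix in every library, 16.4% of 2-fold changes were recovered in all lymphocytes and 0.0% in Cd3-detected cells.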
